A study of Mus musculus with 14 samples.

Results

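The breakdown of branched-chain amino acids was followed through 10 genes in mouse fat and in a brown fat cell line. The genes were chosen by name (Bcat1, Bcat2, Bckdha, Bckdhb, Dbt, Bckdk, Ppm1k, Ivd, Hibch and Acadsb), and each had 1 of the 24421 gene rows in the deposited tables. All 10 passed the filter on low read counts in both experiments. Whole fat was compared between brown adipose tissue (BAT) and perigonadal white adipose tissue (WAT), 4 libraries of each. Both came from C57BL/6N mice aged 22 weeks, housed at ambient temperature, fed for 14 weeks on a high-fat diet in which fat supplied 60% of the energy, and no lean group was analysed here. The cells were a BAT cell line, described by the labels with no clone, sex or strain. Cells were differentiated with insulin, T3, dexamethasone, IBMX and, per the labels, rosiglitazone for beige cells. On day 7 they received 100 µM blebbistatin, an inhibitor of the myosin II motor (BLEB), or its vehicle DMSO (control) for 24 h, with 3 libraries of each. No separate animal or culture is stated for each replicate, so the p-values measure the spread between these libraries, which may be technical.

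Leucine, isoleucine and valine first lose their amino group to a branched-chain aminotransferase, Bcat1 in the cytosol or Bcat2 in the mitochondria. The mitochondrial branched-chain keto acid dehydrogenase complex (BCKDH) then makes the committed step. Its E1 part is built from Bckdha and Bckdhb, its E2 core from Dbt, and its E3 part is Dld, which other dehydrogenase complexes share. Bckdk is the kinase that phosphorylates E1 and switches the complex off, and Ppm1k is the phosphatase that switches it on. Further on, Ivd acts on the leucine product, Acadsb on the isoleucine product and Hibch on the valine product, and the carbon enters the citrate cycle or ketone bodies. Brown fat is known to take up and oxidise these amino acids in the cold.

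BAT libraries were shallower, with 1014959 to 2335058 reads in genes against 6859404 to 16091372 in WAT. Genes took 19.1% to 42.3% of the mapped reads in BAT and 71.1% to 83.0% in WAT, where mapped reads were inferred from RPKM. The cell libraries held 10920307 to 12978198 reads in genes with BLEB and 10685378 to 14176846 in control cells. Levels are given as CPM, counts per 1000000 gene reads after TMM scaling, unless RPKM, which is also divided by exon length and is relative to all mapped reads, is named. The tissue labels matched their markers. The 8 brown adipocyte markers summed to 18103 to 27739 CPM in BAT and 18.0 to 28.9 CPM in WAT. In the cells the same markers summed to only 185 to 245 CPM with BLEB and 159 to 361 CPM in controls, and 0 of the 8 were called. Ucp1, the uncoupling protein that defines brown fat, stood at 8.15, 14.3 and 9.82 CPM with BLEB against 123, 52.6 and 26.1 CPM in controls (limma adjusted p = 0.0908). Elovl3, a fatty acid elongase of brown fat, lay the other way, at 29.9, 35.0 and 31.3 CPM with BLEB against 18.9, 10.8 and 5.93 CPM in controls (limma adjusted p = 0.109). Ppargc1a and Cox8b were also higher in every BLEB library than in any control library, without a call. Cox7a1 (log2 -0.84), Dio2 (-0.57) and Prdm16 (-0.43) leaned lower with BLEB, as Ucp1 did, and Cidea (0.32) leaned higher. The groups overlapped on CPM for Cox7a1, Dio2, Prdm16 and Cidea, and none was called. The 8 general adipocyte markers summed to 10712 to 15521 CPM with BLEB and 10444 to 14855 CPM in controls. In whole tissue, fewer cells of a type and less RNA per cell cannot be told apart.

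The regions before the start sites of Bckdha, Bckdhb and Ivd are shown because Bckdha and Bckdhb encode the E1 subunits, which stood furthest above WAT among the members, and because the Ivd region held the most CCAAT matches. Each is the 250 bases upstream of a RefSeq start site on GRCm38.p6, read in the direction of the gene, with the letters CCAAT or their reverse complement in capitals.
Bckdha: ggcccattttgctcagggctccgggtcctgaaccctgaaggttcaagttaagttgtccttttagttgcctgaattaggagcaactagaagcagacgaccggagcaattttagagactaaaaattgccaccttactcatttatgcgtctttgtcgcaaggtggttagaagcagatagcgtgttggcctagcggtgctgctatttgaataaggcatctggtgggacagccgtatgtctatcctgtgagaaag
Bckdhb: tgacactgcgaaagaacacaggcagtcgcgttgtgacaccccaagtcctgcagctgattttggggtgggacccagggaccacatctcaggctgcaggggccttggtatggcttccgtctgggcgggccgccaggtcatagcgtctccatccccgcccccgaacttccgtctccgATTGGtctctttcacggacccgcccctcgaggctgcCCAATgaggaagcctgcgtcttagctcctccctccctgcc
Ivd: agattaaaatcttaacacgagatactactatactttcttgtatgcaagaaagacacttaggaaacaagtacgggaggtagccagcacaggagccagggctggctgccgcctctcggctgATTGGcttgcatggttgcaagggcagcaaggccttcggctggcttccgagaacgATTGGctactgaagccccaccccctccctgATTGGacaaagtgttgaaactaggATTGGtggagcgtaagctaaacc
The Bckdha region lies on the minus strand at chr7:25658762-25659011, the Bckdhb region on the plus strand at chr9:83924887-83925136, and the Ivd region on the plus strand at chr2:118861744-118861993. Bckdhb has another RefSeq start, with its upstream region at chr9:83948531-83948780, which is not shown. Which Bckdhb start belongs to the measured gene row was not established, because the row is placed on mm9. The RefSeq table gave 12 promoters for 9 of the 10 genes, each running from 250 bases before to 50 bases after a start, and both strands were searched. CCAAT, the core letters of NF-Y sites, was in 6 of the 12, which belong to Bcat1, Bckdhb, Bckdk, Ivd and Ppm1k, and in 37.4% of all 32851 promoters. Ivd held 4 matches in the single window, all on the reverse strand, and Bckdha held none. TNAAGGTCA, the letters bound by estrogen-related receptors, was in 0 of the 12 and in 1.28% of all promoters. GCATGCGC, the core letters of NRF1 sites, was in 0 of the 12 and in 2.71% of all. Only CCAAT had matches in these windows, so no overlap between the motifs could arise.

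In brown fat, 9 of the 10 genes were higher than in white fat and Bcat1 alone was lower. The whole transcriptome differed as well: of 12754 genes tested, 7991 (62.7%) were called by limma at an adjusted p below 0.05, 3745 (29.4%) higher in BAT and 4246 (33.3%) lower. The members' median log2 fold change was 1.59, against -0.096 over all genes tested. Their CPM summed to 1994 to 2712 in BAT and 445 to 559 in WAT. In all 10 genes the BAT and WAT libraries did not overlap on CPM, as in 58.4% of all genes tested. The 16 genes of the citrate cycle, all called higher, had a median of 3.25 with a range of 2.18 to 4.12. The 19 genes of the respiratory chain, all called higher, had a median of 3.05. No member lay above the citrate cycle's median, and 6 lay below its lowest gene. Markers of other cell types moved with the tissue as well: 7 of 8 endothelial markers were higher in BAT (median log2 1.79, sums of 1183 to 1496 CPM in BAT and 354 to 460 CPM in WAT), and 6 of 8 fibroblast and preadipocyte markers were lower (median log2 -1.75, sums of 1000 to 1262 CPM in BAT and 2055 to 3148 CPM in WAT). All 13 skeletal muscle markers were higher (median log2 8.43, sums of 2846 to 38693 CPM in BAT and 44.1 to 59.3 CPM in WAT). All 11 macrophage markers with a row were lower (median log2 -4.03, sums of 472 to 1230 CPM in BAT and 12755 to 18736 CPM in WAT). The part of these cell types in the members' differences was not tested. In the authors' deposited table all 10 members had an adjusted p below 0.05, with log2 fold changes from -0.76 (Bcat1) to 2.98 (Bckdha).

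Those values depend on what the reads are counted against. On RPKM, relative to all mapped reads, the median gene was shifted by -1.51 on the log2 scale in BAT, and 10314 genes (80.9%) were called, 836 (6.55%) higher and 9478 (74.3%) lower, so that 8.11% of the calls were higher against 46.9% on CPM. Bckdha, Bckdhb, Dbt and Hibch were still called higher on RPKM, by log2 values of 1.67, 1.59, 1.45 and 0.90, and Bcat1 was called lower, by -1.94. For Bcat2, Ppm1k and Acadsb the sign turned without a call (-0.51, -0.13 and -0.58). For Bckdk and Ivd the difference shrank to 0.16 and 0.07 and the call was lost. On RPKM the BAT and WAT libraries overlapped for Bcat2, Bckdk, Ppm1k, Ivd and Acadsb. The share of mapped reads in genes moved with the tissue, and its part in the result was not tested. Once RPKM was centred on each library's median, all 9 were called higher.

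Among the 10 members, the 3 genes of the BCKDH complex itself stood furthest above white fat. Bckdha (E1 alpha; mm9 chr7:26414871-26443780, minus strand) had 684, 899, 742 and 655 CPM in BAT, against 61.3, 95.7, 94.9 and 85.1 CPM in WAT. The lowest BAT library exceeded the highest WAT library several times over, and the fitted difference was 8.87-fold (log2 3.15, SE 0.17, limma adjusted p = 1.88e-08). Across the 12754 genes tested, 356 (2.79%) had a log2 fold change at least that large. Bckdhb (E1 beta; mm9 chr9:83842388-84017847, plus strand) had 274, 308, 230 and 271 CPM in BAT, against 32.9, 31.5, 36.9 and 28.4 CPM in WAT, a log2 fold change of 3.04 (SE 0.14, limma adjusted p = 5.05e-09). Dbt (E2; mm9 chr3:116215997-116252899, plus strand) had 220, 320, 319 and 327 CPM in BAT, against 37.4, 38.6, 43.7 and 32.8 CPM in WAT. BAT 1 lay below the other BAT libraries for Dbt yet far above every WAT library (log2 2.93, SE 0.16, limma adjusted p = 1.88e-08). Dld, the shared E3 subunit, rose alongside them, with 582 to 1122 CPM in BAT and 128 to 161 CPM in WAT (log2 2.63, SE 0.20, limma adjusted p = 2.40e-07).

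**Figure D1:**
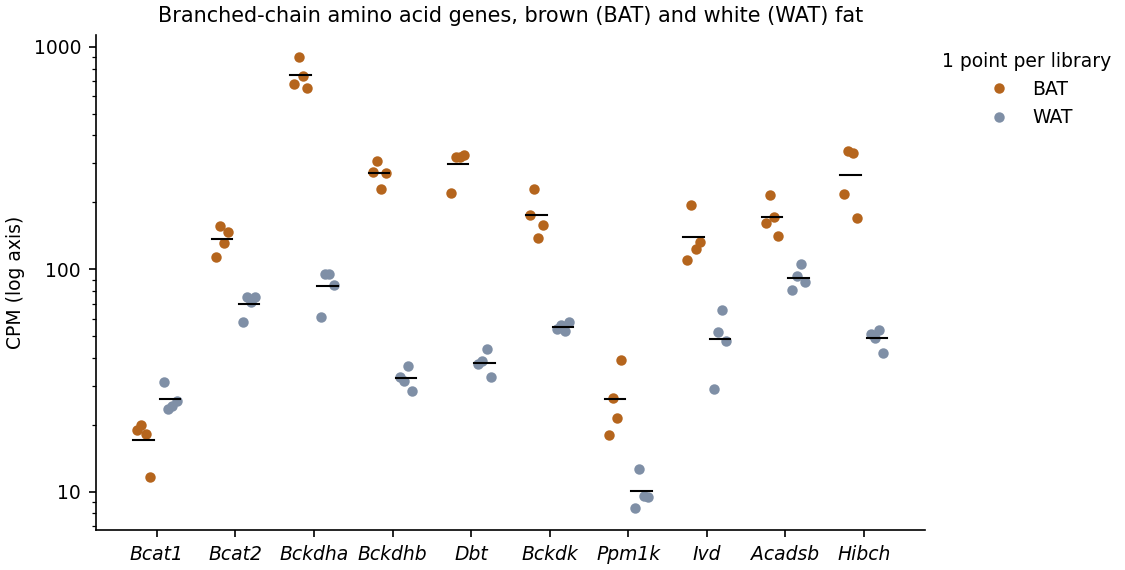
CPM of the 10 genes in each BAT and WAT library on a log axis, with 1 point per library (n = 4 each) and a bar at the group mean. BAT and WAT points do not overlap for any gene. On CPM 9 genes are higher in BAT and Bcat1 is lower, while on RPKM the sign turns for Bcat2, Ppm1k and Acadsb. On RPKM Bckdk and Ivd also lose their calls, and the tissues overlap for Bcat2, Bckdk, Ppm1k, Ivd and Acadsb.

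The kinase and the phosphatase that set the activity of the complex were both higher in BAT on CPM, by less than the complex. Bckdk (mm9 chr7:135047587-135053178, plus strand) had 176, 229, 139 and 158 CPM in BAT, against 53.9, 56.4, 53.1 and 57.8 CPM in WAT. White fat libraries were tightly grouped and brown ones spread more (log2 1.63, SE 0.16, limma adjusted p = 1.85e-06). On RPKM the tissues overlapped for Bckdk and it was not called (log2 0.16, limma adjusted p = 0.689). Ppm1k (mm9 chr6:57456496-57485420, minus strand) was low, with 18.0, 26.5, 21.4 and 39.0 CPM in BAT against 8.49, 12.7, 9.61 and 9.44 CPM in WAT. It was called higher on CPM (log2 1.30, SE 0.24, limma adjusted p = 5.11e-04), with the sign turned on RPKM as given above, and rested on only 20 to 60 reads per BAT library. Its highest library, BAT 4, also carried the most skeletal muscle transcripts: the 13 muscle markers, all called higher in BAT, summed to 38693 CPM there, to 2846 to 5470 CPM in the other BAT libraries and to 44.1 to 59.3 CPM in WAT. Without BAT 4 the log2 fold change of Ppm1k was 1.10 (limma adjusted p = 9.84e-04), so the call held without that library. The other BAT libraries still held far more muscle transcripts than WAT, and the part of muscle in the Ppm1k result was not tested.

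The transaminases went opposite ways. Bcat2 (mm9 chr7:52828240-52845080, plus strand), the mitochondrial form, had 114, 157, 132 and 147 CPM in BAT, against 58.2, 75.3, 71.7 and 74.9 CPM in WAT. Every BAT library was above every WAT library, by 1.95-fold in the fit (log2 0.96, SE 0.15, limma adjusted p = 9.22e-05), although the sign turned on RPKM. Bcat1 (mm9 chr6:144942355-145024677, minus strand), the cytosolic form, had 18.9, 19.9, 18.2 and 11.7 CPM in BAT, against 31.1, 23.6, 24.2 and 25.5 CPM in WAT. It was lower in BAT by a log2 fold change of -0.61 (SE 0.20, limma adjusted p = 0.0164), with 17 to 44 reads per BAT library. The call was lost without WAT 1, its highest WAT library (log2 -0.52, adjusted p = 0.0533), and on RPKM centred on library medians (log2 -0.37, adjusted p = 0.179). Macrophage markers moved with it: all 11 with a row were called lower in BAT, none was at 0 in either tissue, and they summed to 472 to 1230 CPM in BAT and 12755 to 18736 CPM in WAT. Their part in the Bcat1 result was not tested.

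Of the 3 members past the complex, Hibch in the valine route differed most. Hibch, which frees 3-hydroxyisobutyrate from its CoA ester (mm9 chr1:52901882-52977830, plus strand), had 218, 341, 333 and 171 CPM in BAT, against 51.5, 49.2, 53.3 and 42.0 CPM in WAT. BAT values fell into a higher and a lower pair, all above WAT (log2 2.37, SE 0.21, limma adjusted p = 9.38e-07). Ivd, the isovaleryl-CoA dehydrogenase of leucine breakdown (mm9 chr2:118687736-118707093, plus strand), had 110, 195, 124 and 133 CPM in BAT, against 29.1, 52.5, 65.5 and 47.8 CPM in WAT. It was higher in BAT on CPM despite the wide spread in WAT (log2 1.54, SE 0.24, limma adjusted p = 1.23e-04). On RPKM the tissues overlapped for Ivd and it was not called (log2 0.07, limma adjusted p = 0.875). Acadsb, the short/branched-chain acyl-CoA dehydrogenase of isoleucine breakdown (mm9 chr7:138554115-138589725, plus strand), had 162, 216, 172 and 141 CPM in BAT, against 80.9, 93.1, 106 and 87.7 CPM in WAT. Its difference was the smallest of the 9 (1.86-fold, log2 0.90, SE 0.15, limma adjusted p = 2.61e-04), and its sign turned on RPKM.

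The rest of the pathway was read from 38 further genes in 8 lists. Of these, 27 were higher in BAT, 8 were lower and 3 were not called, with a median log2 fold change of 1.56. On RPKM 14 were higher and 13 lower. For leucine, 4 of 5 genes were higher, among them Auh, the methylglutaconyl-CoA hydratase (119 to 148 CPM in BAT, 30.2 to 36.8 CPM in WAT, log2 1.97), whose call was lost on RPKM (log2 0.50, limma adjusted p = 0.142). Oxct1, which activates ketone bodies, was also among them on CPM (492 to 651 CPM in BAT, 284 to 350 CPM in WAT, log2 0.88), with the sign turned on RPKM (-0.61, not called). For isoleucine and valine all 6 were higher on CPM. Acat1, a mitochondrial thiolase, led them with 610 to 1054 CPM in BAT and 97.1 to 124 CPM in WAT (log2 2.91), and Aldh6a1, the methylmalonate semialdehyde dehydrogenase, had the lowest difference (306 to 488 CPM in BAT, 122 to 187 CPM in WAT, log2 1.33, and -0.16 on RPKM).

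All 4 genes that carry propionyl-CoA to succinyl-CoA were higher in BAT on CPM. Mcee, the methylmalonyl-CoA epimerase, had 219 to 410 CPM in BAT and 24.4 to 29.8 CPM in WAT (log2 3.51, SE 0.18), and Mut, the mutase that follows it, had 133 to 221 CPM in BAT and 58.6 to 86.4 CPM in WAT (log2 1.42, and -0.06 on RPKM). Among 8 genes of cofactor supply 7 were higher and 1 lower. Slc25a42, which carries CoA into mitochondria, had 221 to 296 CPM in BAT and 12.5 to 21.4 CPM in WAT (log2 4.01, SE 0.17). Hlcs, which attaches biotin to the carboxylases of these routes, was the gene that fell, with 2.60 to 9.63 CPM in BAT and 21.7 to 31.2 CPM in WAT (log2 -2.30, SE 0.32). Its values rested on only 4 to 12 reads per BAT library. The log2 fold changes in these lists had limma adjusted p-values between 4.29e-09 (Slc25a42) and 1.52e-04 (Oxct1) for the genes named.

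Transport split by membrane. The 5 transporter genes of the plasma membrane were called lower in BAT, and Slc7a8, a light chain of the large neutral amino acid exchanger, fell most, with 15.5 to 21.4 CPM in BAT and 59.0 to 71.8 CPM in WAT (log2 -1.82, SE 0.15, limma adjusted p = 4.94e-07). For Slc7a5 the tissues overlapped (2.14 to 7.73 CPM in BAT, 7.37 to 13.3 CPM in WAT), on 2 to 18 reads per BAT library. Slc43a1 overlapped too (3.01 to 11.1 CPM in BAT, 10.1 to 15.2 CPM in WAT), on 4 to 17 reads per BAT library. The macrophage markers given beside Bcat1 were lower in BAT too (11 of 11), and their part in the transporter result was not tested. Slc25a44, which carries branched-chain amino acids into mitochondria, was higher on CPM, with 67.7 to 104 CPM in BAT and 47.9 to 57.1 CPM in WAT (log2 0.71, SE 0.16, limma adjusted p = 0.0017), but was called lower on RPKM (log2 -0.73, adjusted p = 0.038). Of the 4 other enzymes of amino nitrogen in the lists, 2 were lower and 2 not called. Abat, the GABA transaminase, had 2.60 to 3.87 CPM in BAT and 21.7 to 51.9 CPM in WAT (log2 -3.13, SE 0.29, limma adjusted p = 1.35e-06). Its values rested on only 3 to 8 reads per BAT library. Gpt2, the mitochondrial alanine transaminase, had 27.9, 31.0, 27.8 and 74.8 CPM in BAT against 88.0, 95.2, 96.7 and 98.5 CPM in WAT, the high value being the muscle-rich BAT 4 (log2 -1.35, limma adjusted p = 7.93e-04, and -1.69 without BAT 4). All 4 regulators were higher, led by Ppara, a nuclear receptor of fat oxidation (271 to 487 CPM in BAT, 3.96 to 7.06 CPM in WAT, log2 5.96, SE 0.21), and including Klf15, a transcription factor known to drive branched-chain amino acid breakdown (74.7 to 120 CPM in BAT, 17.3 to 20 CPM in WAT, log2 2.38, SE 0.17).

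Compared per exon length, Bckdha was the most abundant of the 10 in BAT, at 133 ± 52.5 RPKM (SD, n = 4), and made up 37.6% of the members' summed RPKM. In WAT it also came first, at 40.3 ± 9.96 RPKM (SD, n = 4) and 20.9% of the sum, but Bcat2 at 35.2 ± 6.04 RPKM was below it in only 3 of 4 libraries. After Bckdha in BAT came Bckdhb at 61.8 ± 24.8 RPKM, for which the RPKM table uses an exon length of 1385 bases where the scaled-count table uses 1473. From Bckdhb down to Acadsb (16.4 ± 6.99 RPKM) no neighbour in the BAT order was separated in all 4 libraries. Ppm1k at 1.46 ± 0.613 RPKM and Bcat1 at 0.693 ± 0.313 RPKM closed the order in BAT. In WAT this last pair was reversed, with Bcat1 at 2.76 ± 0.154 RPKM and Ppm1k at 1.52 ± 0.347 RPKM, in 4 of 4 libraries.

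**Figure D2:**
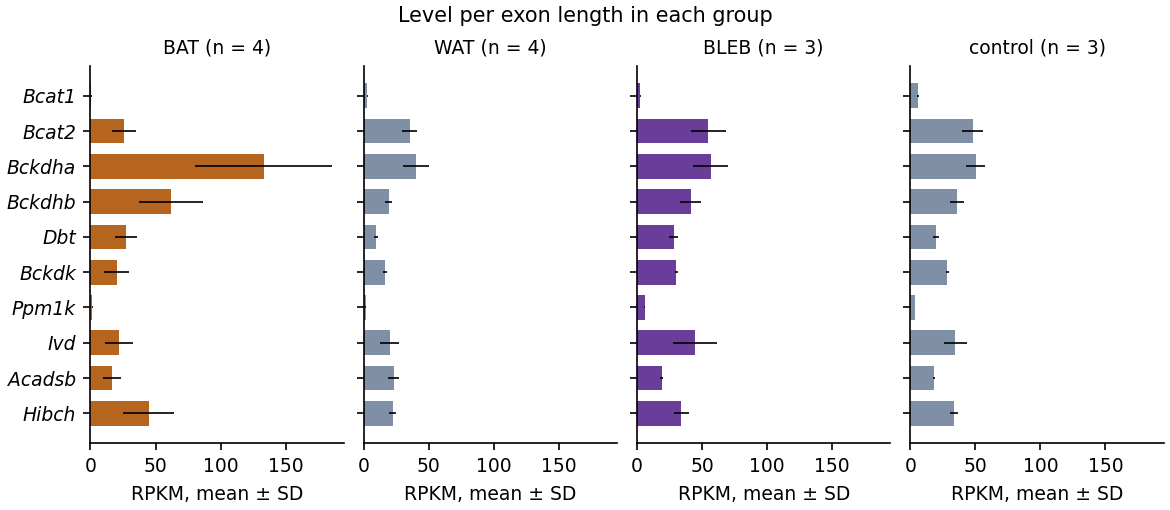
Mean RPKM (bars) with SD (lines) of the 10 genes in BAT and WAT (n = 4 each) and in BLEB and control cells (n = 3 each), on a common axis from 0. Bckdha has the highest mean in every group, at 133 RPKM in BAT, 40.3 in WAT, 56.5 in BLEB and 50.2 in control cells, and Bcat1 and Ppm1k are the lowest pair in each; the tissue and cell tables were normalised apart.

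A ratio within a library does not move with the scaling of that library, apart from the 0.1 added to each RPKM for the tests. Ratios of single libraries are given without the 0.1, and differences in mean log2 ratio with it. Bckdha per Bcat2 was 5.69, 5.42, 5.34 and 4.22 in BAT, against 0.997, 1.20, 1.25 and 1.08 in WAT. Bckdha per Bckdk was 6.28, 6.32, 8.61 and 6.69 in BAT, against 1.84, 2.74, 2.88 and 2.38 in WAT, and for both ratios every BAT value was above every WAT value. These ratios were chosen after their values were seen and have no test. Of 4 ratios tested in each experiment, Bcat2 to Bcat1 was 28.3, 37.1, 34.0 and 58.9 in BAT, against 8.80, 15, 13.9 and 13.8 in WAT, without overlap. The difference in mean log2 ratio was 1.42 (two-sided exact permutation p = 0.0286, at the floor set by 70 splits; adjusted over the 8 tests p = 0.229). With 8 tests adjusted together 4 against 4 libraries cannot go below 0.0571, so no ratio could pass. The subunits of the complex gave no such gap: Bckdhb to Bckdha was 0.387 to 0.527 in BAT and 0.411 to 0.657 in WAT, and Dbt to Bckdha was 0.173 to 0.268 in BAT and 0.207 to 0.328 in WAT. Ppm1k to Bckdk ran over 0.0526 to 0.126 in BAT and 0.0807 to 0.116 in WAT, and the tissues overlapped in all 3 of these ratios.

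In the cell line 24 h of blebbistatin left few calls, and the one member among them was Bcat1, which fell. Across 12808 genes tested, limma called 111 (0.867%), 17 (0.133%) higher and 94 (0.734%) lower. Among the members 1 was lower, 0 were higher and 9 were not called, with a median log2 fold change of 0.12 against 0.007 over all genes. Summed CPM of the members was 819, 975 and 829 with BLEB and 832, 853 and 732 in controls. In 2 of the 10, Bcat1 and Ppm1k, the groups did not overlap, as in 19.6% of all genes tested. The number of calls was unstable, at 497 with DESeq2, 321 without control 1 and 13 without control 2.

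Bcat1 had 26.9, 24.9 and 25.2 CPM with BLEB, against 57.4, 54.8 and 64.8 CPM in controls, from 272 to 347 reads with BLEB and 608 to 770 reads in controls. The groups were tight and far apart, with a fold of 0.44 (log2 -1.18, SE 0.11, limma adjusted p = 0.00447). Leaving out any single library kept the call, with log2 values of -1.23 to -1.11, and on RPKM the size was similar without a call (log2 -1.13, adjusted p = 0.0543). The authors' deposited table gave Bcat1 a log2 fold change of -1.20 with an adjusted p of 6.28e-11. The 11 macrophage markers with a row summed to 48.1 to 63.0 CPM with BLEB and 19.3 to 61.2 CPM in controls, and most of this was Gpnmb, with 56.3, 40.5 and 52.4 CPM with BLEB and 11.1, 39.7 and 53.6 CPM in controls (not called). The defining marker Adgre1 was at 0 in all 6 libraries, and Csf1r was at 0.224 to 0.371 CPM with BLEB and 0.378 to 1.32 CPM in controls. Lymphocyte markers summed to at most 0.598 CPM with BLEB and 0.472 CPM in controls, and endothelial markers to at most 5.36 CPM with BLEB and 6.89 CPM in controls. Fibroblast and preadipocyte markers summed to 177 to 188 CPM with BLEB and 163 to 330 CPM in controls, where 1 of 7 tested was lower and 0 higher, and their part in the Bcat1 result was not tested.

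**Figure D3:**
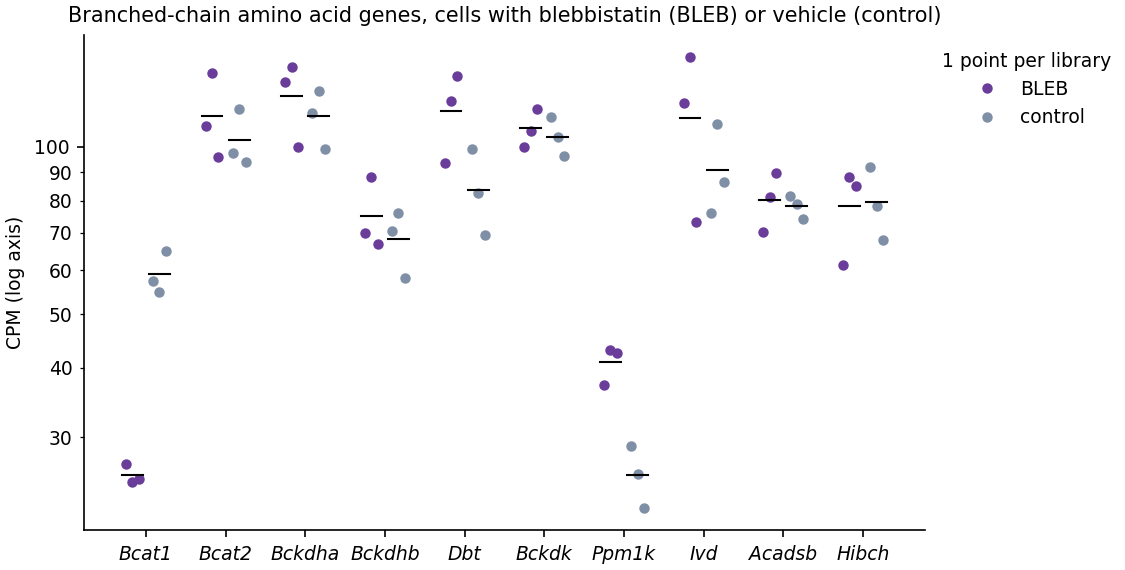
CPM of the 10 genes in each BLEB and control library on a log axis, with 1 point per library (n = 3 each) and a bar at the group mean. Only Bcat1 and Ppm1k show no overlap, Bcat1 lower with BLEB (24.9 to 26.9 against 54.8 to 64.8 CPM) and Ppm1k higher (37.3 to 43.1 against 22.4 to 28.9 CPM, not called).

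Ppm1k, the phosphatase that activates the complex, had 37.3, 43.1 and 42.5 CPM with BLEB, against 28.9, 25.8 and 22.4 CPM in controls. Every BLEB library was above every control library, yet the difference was not called (log2 0.67, SE 0.13, limma adjusted p = 0.0712). The call depended on the setting: it was made without control 1 (adjusted p = 0.0315) and with DESeq2 (adjusted p = 0.00165), and not with any other single library left out (adjusted p = 0.121 to 0.326). In the authors' deposited table the adjusted p was 0.00809. Bckdk, the opposing kinase, had 100, 107 and 117 CPM with BLEB and 113, 104 and 96.1 CPM in controls, with overlap (log2 0.05, SE 0.11, limma adjusted p = 0.909). The ratio of phosphatase to kinase was 0.190, 0.206 and 0.186 with BLEB, against 0.13, 0.127 and 0.12 in controls (difference in mean log2 ratio 0.61, two-sided exact permutation p = 0.1, at the floor set by 20 splits).

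The transaminase of the mitochondria and the complex gave no call. Bcat2 had 109, 136 and 96.0 CPM with BLEB and 97.3, 117 and 93.9 CPM in controls (log2 0.14, SE 0.15). Its ratio to Bcat1 was 19.0, 25.8 and 17.9 with BLEB, against 7.93, 10.0 and 6.79 in controls (difference in mean log2 ratio 1.31, two-sided exact permutation p = 0.1). Bckdha had 131, 139 and 100 CPM with BLEB and 115, 126 and 99.3 CPM in controls (log2 0.11, SE 0.15), and the groups overlapped. Bckdhb overlapped too, with 69.9, 88.1 and 66.8 CPM with BLEB and 70.6, 76.1 and 58.0 CPM in controls (log2 0.13, SE 0.15). Dbt had 93.5, 121 and 134 CPM with BLEB and 99.3, 82.5 and 69.5 CPM in controls, with overlap and no call (log2 0.47, SE 0.17, limma adjusted p = 0.31). On RPKM the Dbt groups did not overlap (24.2 to 30.7 RPKM with BLEB, 17.1 to 21.7 RPKM in controls), and the difference was again not called (log2 0.50, limma adjusted p = 0.305).

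Downstream, Ivd had 120, 145 and 73.3 CPM with BLEB and 76.1, 110 and 86.4 CPM in controls, the widest spread among the members (log2 0.27, SE 0.25). Hibch had 61.2, 88.2 and 85.0 CPM with BLEB and 92.1, 78.2 and 68.0 CPM in controls (log2 -0.03, SE 0.17), and Acadsb had 70.3, 81.1 and 89.6 CPM with BLEB and 81.5, 78.8 and 74.2 CPM in controls (log2 0.03, SE 0.12). The limma adjusted p-values of Ivd, Hibch and Acadsb were 0.749, 0.965 and 0.946. BLEB 3 and control 1 had the lowest shares of mapped reads in genes of their groups, 72.9% and 75.2%. With both left out, an alternative chosen after seeing the data, 1019 genes were called, Bcat1 kept its call (log2 -1.20, adjusted p = 4.04e-04) and Ppm1k was called higher (log2 0.71, adjusted p = 0.00869).

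Of the 38 further pathway genes 37 were not called in the cells and 1 was higher, with a median log2 fold change of 0.03. That gene was Ppara, with 112, 123 and 119 CPM with BLEB against 79.7, 80.2 and 68.7 CPM in controls (log2 0.63, SE 0.10, limma adjusted p = 0.0441). Its call was lost without BLEB 1, BLEB 2, BLEB 3, control 2 or control 3, with adjusted p-values of 0.0662 to 0.22. Klf15 showed a like difference, with 79.8, 74.3 and 84.1 CPM with BLEB against 54.7, 54.7 and 44.4 CPM in controls, and was not called (log2 0.63, SE 0.12, limma adjusted p = 0.0615). Its call depended on the setting, and 4 of 17 alternatives called it higher. These were no TMM (limma adjusted p = 0.0467), without control 1 (0.0405), without both control 1 and BLEB 3 (0.00993), and DESeq2 (adjusted p = 7.78e-04). Dld (log2 0.01, SE 0.18), Slc25a44 (log2 -0.07, SE 0.14) and Aldh6a1 (log2 0.28, SE 0.16) were not called. The 16 citrate cycle genes (median -0.07) and the 19 respiratory chain genes (median -0.10) had no call either.

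**Figure D4:**
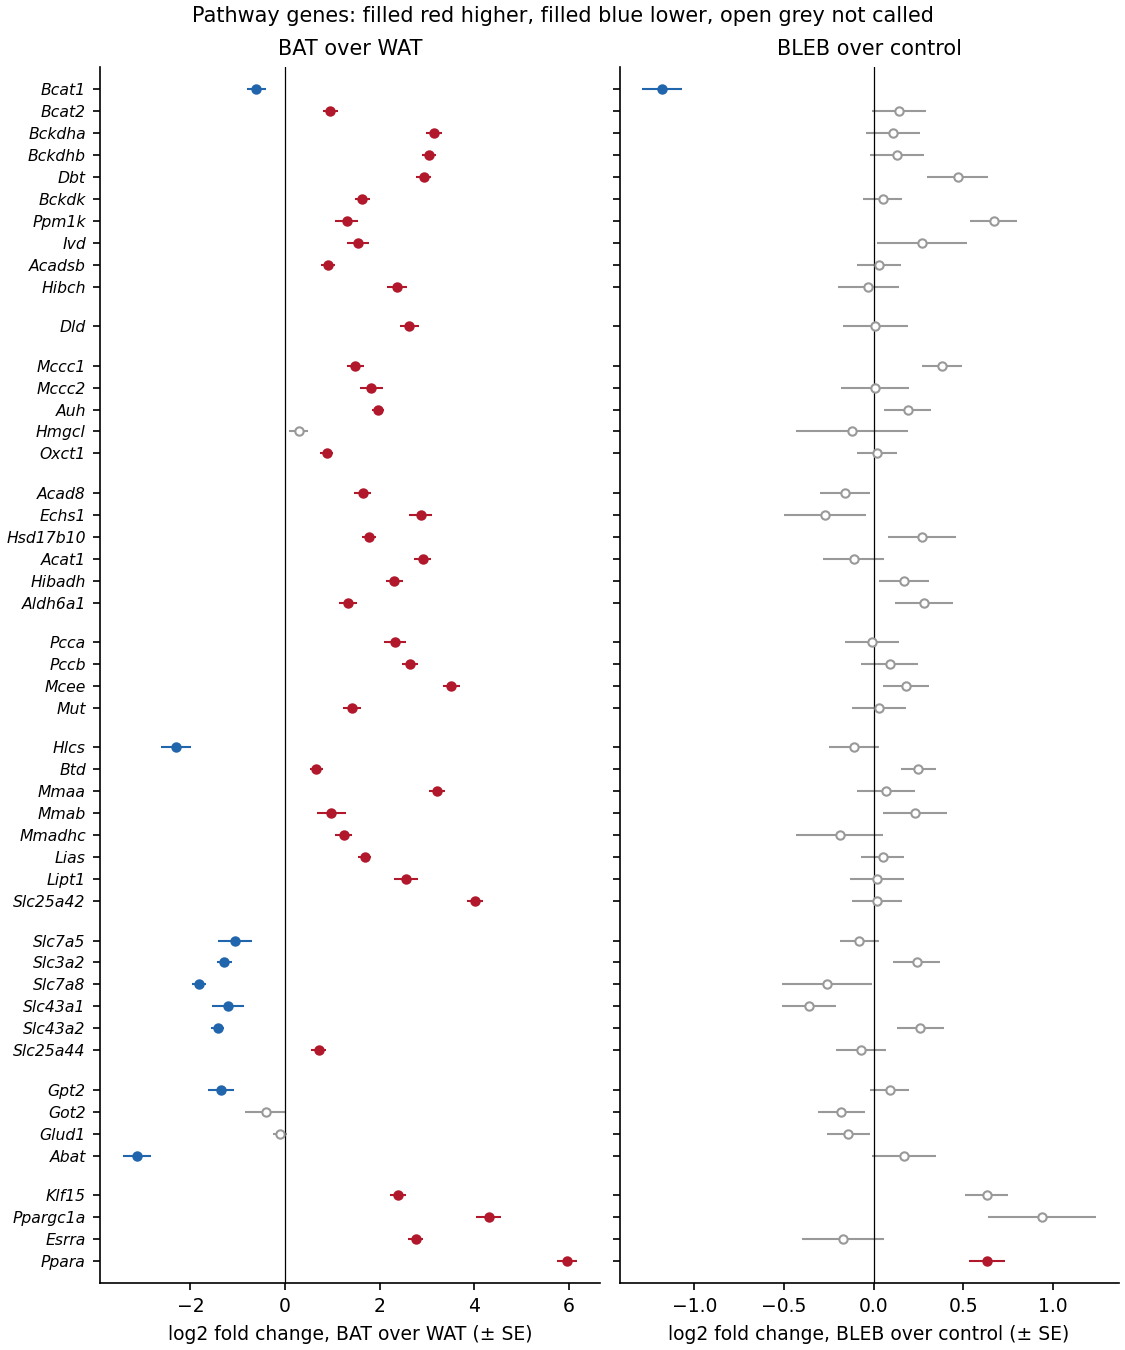
Log2 fold changes with SE for the 10 members and 38 further pathway genes, BAT over WAT on the left (n = 4 each) and BLEB over control on the right (n = 3 each), fitted on CPM and with a separate scale for each. In BAT most mitochondrial steps are higher and the plasma membrane carriers lower. On RPKM the sign turns for Bcat2, Ppm1k, Acadsb, Oxct1, Aldh6a1, Mut and Slc25a44 among the genes named, and Bckdk, Ivd and Auh lose their calls. With BLEB only Bcat1 (lower) and Ppara (higher) are called.

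Per length, the order of the members in the cells ran from Bckdha, at 56.5 ± 13.4 RPKM with BLEB and 50.2 ± 7.01 RPKM in controls (SD, n = 3 each), over Bcat2, at 54.9 ± 13.3 RPKM with BLEB and 48.0 ± 8.13 RPKM in controls. Bckdha per Bcat2 was thus 1.14, 0.963 and 0.993 with BLEB and 1.13, 1.02 and 1.00 in controls. With BLEB, Bckdha exceeded Bcat2 in 1 of 3 libraries, so this pair was not ordered. The lowest pair changed places: Ppm1k was above Bcat1 with BLEB (5.88 ± 0.495 and 2.62 ± 0.299 RPKM) in 3 of 3 libraries, and Bcat1 was above Ppm1k in controls (5.87 ± 0.721 and 3.59 ± 0.292 RPKM) in 3 of 3.

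**Figure D5:**
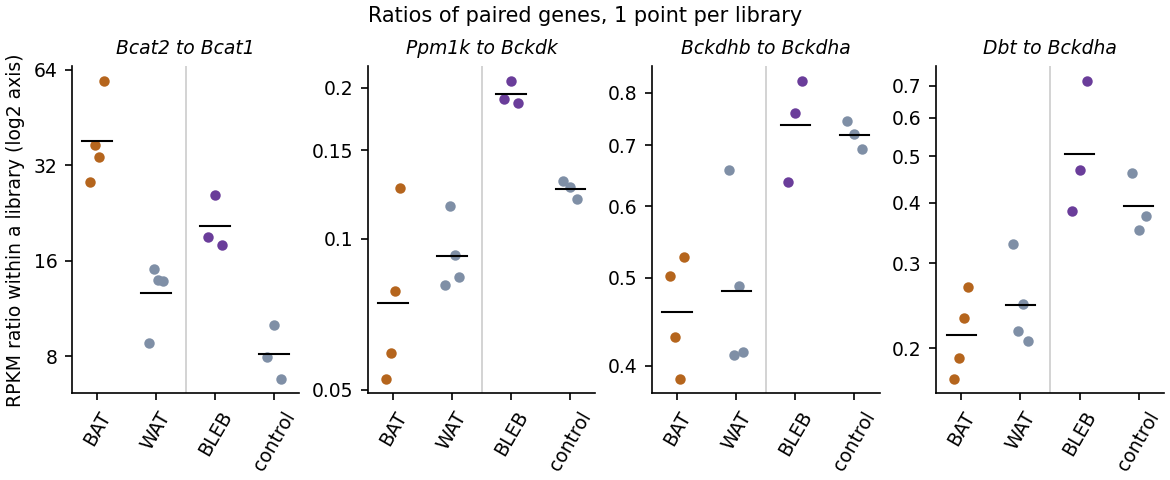
Ratio of RPKM between paired genes within each library on a log axis, without the 0.1 added for the tests. BAT and WAT have 4 points each and BLEB and control cells 3 points each, with a bar at the mean log2 of the ratios shown. Bcat2 to Bcat1 does not overlap in either comparison (28.3 to 58.9 in BAT, 8.80 to 15 in WAT; 17.9 to 25.8 with BLEB, 6.79 to 10.0 in controls), and Ppm1k to Bckdk separates only the cells.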

How the data were processed

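Messenger RNA isolated in TRIzol went into libraries that keep the strand, per the labels' protocols. STAR, HOMER and edgeR were used with build mm9, per the submitters' processing notes, with no version named. Reads in exons were counted by HOMER with 1 row per gene, per the file headers. The authors deposited this gene signal as read counts scaled to a common total per experiment, with the authors' log2 fold changes and p-values in the same tables. The authors' other deposited tables give RPKM, relative to exon length and mapped reads. A deposited sheet of myosin genes was not used.

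From the deposited signal the reads were recovered: 100% of values up to 1000 reads lay within 0.1 of a whole read. Genes entered by filterByExpr (minimum count 10, minimum total 15). The main test was limma's empirical Bayes test (trend, robust) on log2(CPM + 0.5), with TMM factors and group as the only term, fitted per experiment over all genes, with Benjamini-Hochberg adjustment and calls below 0.05. Because of the pseudocount, differences of genes with few reads are understated. edgeR's quasi-likelihood test on the recovered reads called 8091 genes between the tissues and 119 in the cells. Alternatives were RPKM with 0.1 or 1 added, RPKM centred on library medians, other scalings, no filter, DESeq2, the replicate number as a block, and each library left out. The tools were DESeq2 1.42.0, edgeR 4.0.16 and limma 3.58.1 under R 4.3.3. The fit was also run on simulated counts with a fixed dispersion and few changed genes, unlike the tissues, and no result here rests on that run. No library was a copy of another: chi-square per degree of freedom between replicates was 5.47 to 51.7.

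The members and gene lists were chosen with earlier results of these data known. All members are named. Of each further pathway list, the called genes with the highest and the lowest log2 fold change are named, plus Dld, Slc25a44, Aldh6a1 and Klf15. Slc7a5 and Slc43a1 are named only for their overlap and low reads. Promoters came from RefSeq (GRCm38.p6); protein sequences were planned and are not used here.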

Additional observations from a re-analysis of the deposited data

Results flagged for a closer look

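Of 54 groups of 4 libraries looked at, 4 held a library set apart from its fellows, where chance flags about 1 in 20. Dbt was 220 CPM in BAT 1 and 319 to 327 CPM in the other BAT libraries. Gpt2 was 74.8 CPM in BAT 4 and 27.8 to 31.0 CPM in the others. The skeletal muscle markers summed to 38693 CPM in BAT 4 and to 2846 to 5470 CPM in the other BAT libraries. The macrophage markers summed to 1230 CPM in BAT 1 and to 472 to 531 CPM in the other BAT libraries. Without BAT 1 the log2 fold change of Dbt was 3.04 and that of Bcat1 -0.69, and without BAT 4 that of Gpt2 was -1.69 (limma, adjusted p = 3.90e-08, 0.0159 and 9.77e-07).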

How the results depend on the processing

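Apart from Slc7a5 and Slc43a1, named genes gave 450 alternative values between the tissues. Of these, 428 kept direction and side of the threshold, 8 lost the call and 14 turned sign. All 14 came on RPKM: with 0.1 added, Bcat2 -0.51, Ppm1k -0.13, Acadsb -0.58, Oxct1 -0.61, Aldh6a1 -0.16, Mut -0.06 and Slc25a44 -0.73, and with 1 added -0.50, -0.06, -0.55, -0.60, -0.15, -0.05 and -0.66 in the same order. On RPKM with 0.1 or 1 added, 4 members were higher, and of the further pathway genes 14 were higher and 13 lower. Members lower were 0 on centred RPKM, and 0 to 1 with a library left out. Without TMM the median gene lay at -0.26.

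In the cells 219 of 255 values were kept, 12 lost the call, 7 gained it and 17 turned sign, all of the 17 in genes not called. All genes called were 30 on RPKM with 0.1 added, 20 with 1 added, 73 without TMM, 497 with DESeq2, 1019 without both control 1 and BLEB 3, and 13 to 321 with a library left out. Members lower were 0 on RPKM with 0.1 or 1 added, and members higher 1 with DESeq2, 1 without both libraries and 0 to 1 with a library left out. Further pathway genes higher were 0 on the 3 RPKM settings and without the filter, 2 without TMM, 2 with DESeq2, 4 without both libraries and 0 to 2 with a library left out. Signs turned for Hibch (0.005 on RPKM with 0.1 or 1 added, 0.03 without TMM), for Acadsb without both libraries (-0.03) and, with a library left out, for Hibch (-0.14 to 0.13), Acadsb (-0.06 to 0.12), Slc25a44 (-0.17 to 0.04), Bcat2 (-0.002 to 0.25), Dld (-0.12 to 0.18) and Bckdk (-0.02 to 0.11). The Bckdhb to Bckdha difference in log2 ratio ran over -0.16 to 0.07 with a tissue library left out and -0.05 to 0.14 with a cell library left out. The cause was not tested.

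Same-numbered libraries deviated from their group means with r of -0.0369 to 0.0733 in the tissues and -0.49, 0.318 and -0.258 in the cells. Not every library correlated best with its own number. With so few libraries per group, these correlations cannot tell whether same-numbered libraries shared an animal or a culture, and the labels do not state it. With the replicate block, 7728 genes were called between the tissues and 30 in the cells, with 0 further pathway genes higher in the cells; Bcat1 in the cells kept its call (adjusted p = 0.0487). Depth limits Bcat1 and Ppm1k in BAT, at 17 to 60 reads per library. It also limits Hlcs (4 to 12 reads per BAT library), Abat (3 to 8), Slc7a5 (2 to 18) and Slc43a1 (4 to 17).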
